A study of Mus musculus with 6 samples.

Results

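FANTOM3 clones are mouse cDNA sequences from a large full-length cDNA collection, and many of them lie inside the body of a known gene on the same strand. Of 56826 rows in the deposited gene table, 33353 were FANTOM3 clones and 23473 carried a gene name. A clone was kept where its interval lay fully inside exactly 1 named row of the same strand and its mean read count over the 6 libraries was at least 10. This left 17964 clones in 7068 host genes, from 20739 clones nested in exactly 1 named row at any count. The clones were thus chosen by their mean count in these libraries, so their levels are a description; the change in TBI was not used. A total of 182 clones had a mean count of 10 to 11, just inside the limit, and 184 nested clones had 9 to under 10, just outside it.

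The study compared normal cortex (control, 3 libraries) with cortex from around the injury 24 h after traumatic brain injury (TBI, 3 libraries). All mice were wild type and of the inbred strain C57BL/6, and the mice that gave control cortex are labelled as normal, with no sham operation named. Clones in genes typical of cortical neurons (Mef2c) and astrocytes (Slc1a2) were read in every library, with the values given further on. Nothing in the labels says that the 3 libraries of a group came from separate animals, so p-values measure the spread between these libraries, which may be technical. Total counts were 67252519 to 83929814 per library. These totals overstate the reads, since a read inside a clone can be counted in the clone row and again in the host row.

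A gene makes a primary transcript that holds exons and introns, and splicing removes the introns. A cDNA clone inside a gene can therefore be a piece of the mature messenger RNA (mRNA), an intron-derived fragment of the primary transcript, or a separate transcript with its own start or end. Many brain genes also end at more than 1 place, and the end is marked by a poly(A) signal, usually AATAAA or ATTAAA, shortly before the last base.

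The clones were placed against the exons of GENCODE M21 (build GRCm38). Of the 17964 clones, 5501 were exonic, meaning that at least 50% of the span lay in exons of the host. Exons of all annotated host transcripts were used, protein-coding or not, so an exonic clone need not be part of the mature mRNA. Another 6771 were intronic, with no overlap with any same-strand exon, 5412 were mixed, and 280 lay in a host row that could not be matched to the annotation. Mixed clones are the rest: they overlap a same-strand exon of any gene, and some have 0% of their span in host exons. Most were unspliced: in 13984 clones the row length recovered from the deposited values was at least 99% of the genomic span. A total of 6308 clones overlapped another clone of the set, and 370 had the same count as their host in every library, so the clones are not independent measurements. Of the hosts, 3418 held 1 clone and 192 held 10 or more.

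Exonic unspliced clones often ended at a poly(A) signal. Of 4265 such clones whose last 30 bases and central 30 bases both lay in annotated exons, 2047 (48.0%) held AATAAA or ATTAAA in the last 30 bases and 129 (3.02%) held one in the central 30 bases. Of all 4542 exonic unspliced clones, 2523 ended within 10 bases of an annotated transcript end. The annotation itself draws on cDNA collections, so this is not an independent check. The following last 30 bases come from GENCODE M21 transcripts and are shown because clones at different ends of Ntrk2, Dclk1 and Ankrd28 gave different values below. Capitals mark the poly(A) signal.

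Ntrk2 3526401J04, chr13:58936995-58937024, plus strand: ctttaacaagccAATAAAgttttatgattc

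Ntrk2 C030027L06, chr13:59133933-59133962, plus strand: aatgatgtcttacAATAAAtaacatcttcc

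Dclk1 6430555I10, chr3:55471287-55471316, plus strand: gccaaaccatgtAATAAAcaggaagaactg

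Dclk1 6330535A08, chr3:55539031-55539060, plus strand: AATAAAgtcatatctcttggtgtacaaatt

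Ankrd28 3110068A07, chr14:31779456-31779485, minus strand: tatatatagAATAAAaaccacatgcatgtg

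Ankrd28 E430019N21, chr14:31698774-31698803, minus strand: tcttttaaatgaAATAAAaatttttaatgt

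Other clones marked a transcript start. Among clones whose host has a start in the RefSeq promoter table (GRCm38.p6), 1843 began within 50 bases of one, in 1488 hosts. Of these, 550 were exonic, 1243 mixed and 1 intronic. In Sbno2 a clone lay at each of 2 starts, with log2 changes in TBI of 0.86 (A830042K24) and 4.27 (F830108N18); the difference between the clones was not tested, and counts over a clone are not a measure of its start alone. The windows around both starts are given from 250 bases before to 50 after the start. RefSeq lists 3 Sbno2 starts. Capitals mark matches to the STAT-type motif TTCNNNGAA, which reads the same on both strands and was found in 8.30% of 32851 promoter windows. Matches to the AP-1 motif TGANTCA, the C/EBP motif TTGCNNAA and TATAAA were searched on both strands as well and none was found in either window. A match describes letters only, and no match says nothing about a factor.

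Sbno2 start 1, at clone A830042K24, chr10:80102653-80102952, minus strand: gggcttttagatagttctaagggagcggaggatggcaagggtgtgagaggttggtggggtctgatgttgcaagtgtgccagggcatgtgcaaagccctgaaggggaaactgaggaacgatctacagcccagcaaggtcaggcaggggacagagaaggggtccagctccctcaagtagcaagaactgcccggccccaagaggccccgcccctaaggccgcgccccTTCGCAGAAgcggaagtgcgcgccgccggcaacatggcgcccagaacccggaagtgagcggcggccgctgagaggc

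Sbno2 start 3, at clone F830108N18, chr10:80075390-80075689, minus strand: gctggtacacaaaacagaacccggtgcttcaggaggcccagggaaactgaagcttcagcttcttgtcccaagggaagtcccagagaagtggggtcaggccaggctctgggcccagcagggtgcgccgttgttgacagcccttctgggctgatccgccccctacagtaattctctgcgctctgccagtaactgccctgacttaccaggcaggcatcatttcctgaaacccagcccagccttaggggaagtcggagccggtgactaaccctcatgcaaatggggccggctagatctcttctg

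In TBI cortex, called clones inside immune, reactive and stress-response genes were mostly higher and called clones inside neuronal genes mostly lower, while most clones were not called. The host lists behind this contrast were chosen with earlier results of these data known, so it is a description. Of 17870 clones tested with edgeR, 861 were higher and 1300 lower at an adjusted p under 0.05 (here "called"), which is 12.1% of the clones against 17.5% of all 42762 gene rows tested. Called rises made up 4.82% of the clones and 9.12% of all rows, and called falls 7.27% and 8.36%. Named rows were called in 26.1% (15.4% higher, 10.7% lower) and the other FANTOM3 rows in 11.1% (5.36% higher, 5.77% lower). Of the called clones, 402 were at least 2-fold higher and 79 at least 2-fold lower, and the same count over all rows was not made. The other 94 clones did not pass the filter on low counts. In bulk cortex, fewer cells of a type and less RNA per cell cannot be told apart. With limma on log2(RPKM + 1) in place of edgeR the counts were 1057 higher and 774 lower.

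Called clones mostly had the direction of their host, with which they can share reads. Of the 7040 hosts tested, 786 were higher and 1035 lower. A total of 708 clones rose in a host that rose, 1137 fell in a host that fell, and 9 went against a called host. Another 909 clones in hosts that rose and 2695 in hosts that fell were not called. In hosts that were not called, 139 clones rose and 158 fell. The median change over all clones was -0.012 on the log2 scale and over all rows 0.0055. Exonic clones were called in 20.4% (416 higher, 703 lower of 5489), mixed clones in 11.6% (261 and 363 of 5382) and intronic clones in 5.76% (164 and 223 of 6721). The classes differed in depth, with a median over clones of the mean count of 405 reads for exonic, 132 for mixed and 54 for intronic clones, and the part of depth in these shares was not tested. Of the exonic clones with a poly(A) signal at the end, 157 of 2042 tested were higher and 324 lower, and of those without one 122 and 268 of 2214.

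**Figure D1:**
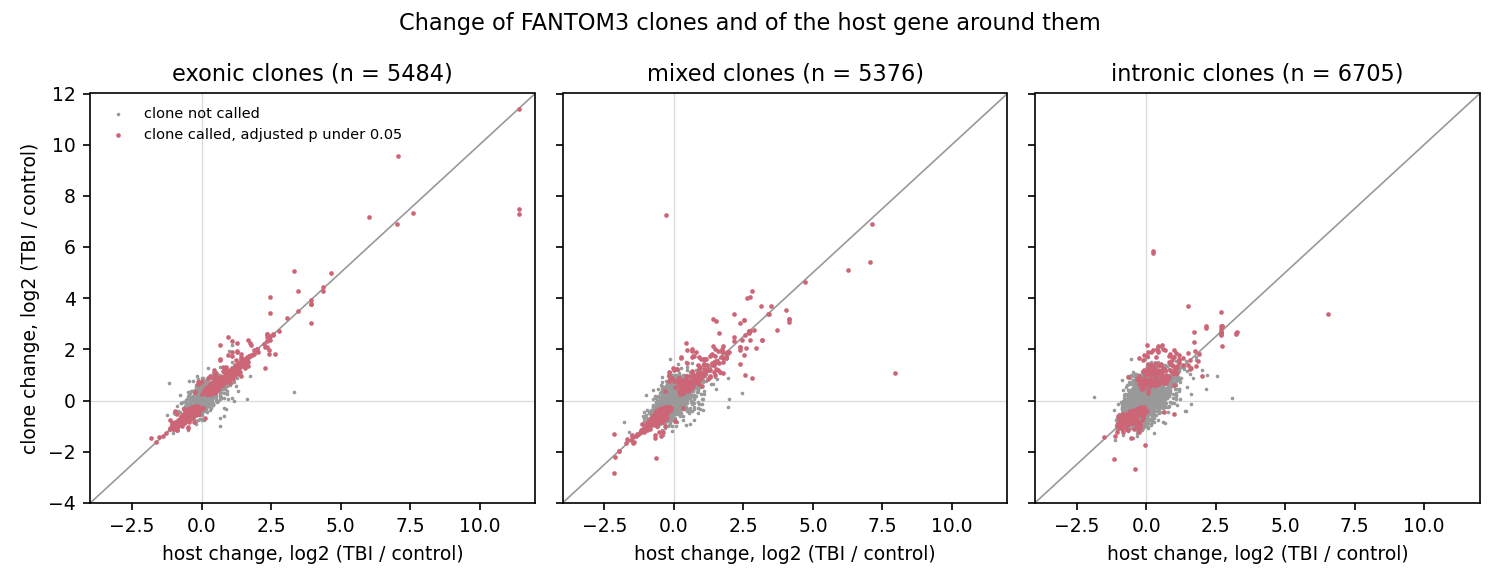
Change of each clone (vertical axis) against the change of its host (horizontal axis), both log2 TBI over control, for exonic, mixed and intronic clones; red points are called clones, and the line marks equal change. Exonic clones lie along the line (median difference -0.0022), and intronic clones scatter more widely around it (median difference 0.14).

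The largest rises among clones with a mean count of at least 30 and no overlap between groups were mostly in genes of the innate immune response. Clone F730001C01 lies in Clec4e, a C-type lectin receptor of myeloid cells, and had 0 reads in all 3 control libraries and 204, 98 and 701 in TBI. Against a floor of 3 reads over the control group this is at least 355-fold higher, and at least 158-fold without TBI replicate 3. The host counts were nearly the same (211, 93 and 707 in TBI). Clone C730026H01, inside the macrophage elastase gene Mmp12, had 0 control reads and 70, 102 and 106 TBI reads, at least 98.4-fold higher by the same floor. Both clones passed the limits on mean count through their TBI reads alone, so a difference was built into their choice. The same holds for the clones in Cxcl10, Gp49a and Art3 described next, whose control reads alone would not have reached the limits. In Cxcl10, which encodes an interferon-induced chemokine, clone F830106P05 had 3, 0 and 3 reads in control and 115, 69 and 809 in TBI. TBI replicate 3 held most of its reads, and the groups did not overlap.

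Clone F730004F19 in Gp49a, an immunoglobulin-like receptor of myeloid cells, went from 0.048 ± 0.029 to 6.15 ± 2.41 RPKM (SD, n = 3 in each group; reads per kilobase of row length, scaled to library size). It had more reads than its host row in every library. The gene has close relatives, and whether reads were split between them was not tested. Clone 4833420K04 was also among the 6 largest rises, with 2, 0 and 1 reads in control and 64, 34 and 402 in TBI, while its host Art3 was at 190, 149 and 127 against 123, 131 and 130. Cxcl10 lies on the opposite strand of Art3, with 3, 4 and 9 reads in control and 416, 231 and 2432 in TBI. The clone shares 133 bases with exons of that strand, and reads of the 2 strands cannot be told apart here because the strand setting of the counting is not given.

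The largest falls were smaller than the largest rises. Clone C030018K13, in a noncoding RIKEN gene, fell from 1.01 ± 0.087 to 0.147 ± 0.054 RPKM (log2 change -2.85 ± 0.33 SE, adjusted p = 8.62e-05). Clone A830043P12 in Siglech, a sialic acid-binding lectin gene of microglia, was lower in TBI, at 1.81 ± 0.096 RPKM in control and 0.609 ± 0.211 in TBI (log2 change -1.64 ± 0.22 SE, adjusted p = 0.000283). Clones in Edn3, which encodes an endothelin peptide, in Pcsk1, a prohormone convertase of neuroendocrine cells, in Gm11627 and in Tceal7 had log2 changes of -1.62, -1.60, -1.97 and -1.54. The Gm11627 clone G630023F10 and the Tceal7 clone 1110018P05 have the same counts as their hosts in every library and add no separate measurement.

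Among the called clones of neuronal hosts, falls outnumbered rises, and most clones of these hosts were not called. For all list counts below, the shares to compare are 4.82% higher and 7.27% lower over all clones, and 9.12% and 8.36% over all rows. Among 204 clones tested in 37 ion channel genes, 57 were lower and 1 higher, with a median log2 change of -0.33. Clone 9830141H23 lies in the 3 prime untranslated end of Cacna2d1, a calcium channel subunit, and had 42.7, 43.1 and 39.6 RPKM in control and 29.7, 29.6 and 27.5 in TBI, with no overlap. The intronic clone 9430092A21 in the potassium channel gene Kcnh7 went from 2.08 ± 0.101 to 1.10 ± 0.094 RPKM (log2 change -0.997 ± 0.13 SE, adjusted p = 0.00018), close to the log2 change of its host (-0.98). Clone 3110038O15 in the calcium channel subunit gene Cacnb4 went from 39.7 ± 3.58 to 27.0 ± 1.43 RPKM.

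In 30 genes of glutamate and GABA receptors, 28 of 140 tested clones were lower and 0 higher. Clone 1500015B05 in Gabrd, the delta subunit of the GABA-A receptor, went from 13.2 ± 0.487 to 6.58 ± 0.896 RPKM (log2 change -1.09 ± 0.10 SE, adjusted p = 1.55e-05). A clone in Gria3, an AMPA receptor subunit gene, fell by 0.82 on the log2 scale. At hosts for synaptic vesicle, scaffold and adhesion proteins, 83 of 491 tested clones were lower and 2 higher. The intronic clone 9630048A22 in Lrrc4c, a postsynaptic adhesion gene, went from 26.4 ± 1.54 to 16.2 ± 0.684 RPKM and its host fell by 0.70 on the log2 scale. Clone 7120449I10 in Camk4, a calmodulin-dependent kinase of neurons, went from 32.6 ± 2.27 to 20.2 ± 1.66 RPKM. It is unspliced and has 1.47% of its span in Camk4 exons.

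Of 315 tested clones in genes of the neuronal cytoskeleton and axon, 51 were lower and 8 higher. Clone 7120467G07 was among those that rose; it lies in Dpysl3, a collapsin response mediator protein of growing axons, and went from 8.25 ± 0.731 to 14.1 ± 0.709 RPKM. Intronic clone A730076E23 in the axon guidance receptor gene Robo2 fell from 4.06 ± 0.231 to 2.48 ± 0.257 RPKM. Among 349 clones in neuronal RNA-binding and transcription factor genes, 36 were lower and 3 higher (11.2% called, near the 12.1% of all clones). Clone 5430401D19 in Mef2c, a transcription factor of cortical neurons, had 133, 105 and 114 RPKM in control and 70.1, 68.1 and 66.8 in TBI. Clone 9330174K10 in the splicing regulator gene Rbfox1 fell by 0.46 on the log2 scale, from 83.5 ± 2.43 to 64.0 ± 3.39 RPKM.

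The 6 immediate early and activity genes that host clones held 13 tested clones, of which 5 were lower and 0 higher. Clone B930060H02 in Homer1, a postsynaptic scaffold gene whose short form is activity-induced, went from 2.34 ± 0.563 to 0.965 ± 0.233 RPKM. This clone has 0% of its span in Homer1 exons and ends at the annotated transcript Gm47075-201, so it does not measure the Homer1 mRNA. The clones in Nr4a3 and Egr3, both transcription factor genes, had adjusted p of 0.0361 and 0.0499, and their libraries overlapped between groups.

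In reactive glia and tissue remodelling genes, 19 of 36 tested clones rose and 0 fell, with a median log2 change of 0.99. Clone F630210B15 in Spp1, which encodes osteopontin, went from 0.240 ± 0.065 to 3.33 ± 0.645 RPKM, and its host rose by 3.49 on the log2 scale. The clone has 24.7% of its span in Spp1 exons and ends at the annotated transcript Gm42793-201. Among 43 tested clones in microglia, macrophage and innate immune genes, 20 rose and 1 fell. Clone F730006E08 in the chemokine gene Ccl4 had 2, 4 and 2 reads in control and 258, 174 and 551 in TBI. Clone A130082N01 in Ptprc, the leukocyte surface phosphatase CD45, went from 0.027 ± 0.0075 to 0.240 ± 0.029 RPKM. It has 0% of its span in Ptprc exons and ends at the annotated transcript A130071D04Rik-201. Intronic clone A630044M17 in Runx1, a transcription factor of blood cells, had 8, 7 and 9 reads in control and 61, 49 and 70 in TBI, with no overlap. Its log2 change was 2.90 ± 0.33 SE and that of the host 2.72. The Ccl4, Ptprc and Runx1 clones reached the limit on mean count only with their TBI reads, so a difference was built into their choice.

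Stress-response hosts gave 14 clones higher and 3 lower of 35 tested. Clone A430041P10 in Ddit3, a transcription factor of the integrated stress response, went from 1.67 ± 0.118 to 3.74 ± 0.557 RPKM. That in Nfe2l2, the transcription factor of the antioxidant response, rose by 1.63 and that in Txnrd1, a thioredoxin reductase, by 0.93 on the log2 scale. The 35 tested clones of astrocyte genes were split, 6 higher and 6 lower. Clone 1810074C23 in the metallothionein gene Mt1 had 234, 212 and 230 RPKM in control and 715, 754 and 889 in TBI. Clone 6330527N22 at the end of Slc1a2, the main glial glutamate transporter, went from 232 ± 13.8 to 172 ± 7.04 RPKM.

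Oligodendrocyte and myelin genes had 5 of 56 tested clones higher and 0 lower. That is 8.93% called, against 12.1% of all clones and 17.5% of all rows. Clone 6230425N15 in Tcf7l2, a transcription factor of differentiating oligodendrocytes, had 0.632, 0.490 and 1.87 RPKM in control and 2.25, 2.43 and 3.55 in TBI. Control replicate 3 stood well above the other controls. Vascular and barrier genes had 4 clones higher and 2 lower of 22. Clone D330012C15 in the endothelial adhesion gene Pecam1 went from 5.41 ± 0.406 to 12.2 ± 0.305 RPKM, and A630088B15 in Itm2a, a membrane protein gene, fell by 0.93 on the log2 scale. Housekeeping genes of protein synthesis, splicing and chromatin had 8 higher and 12 lower of 129. Their 15.5% called lay between the shares of all clones and of all rows. Clone 6330419P03 in Neat1, the noncoding scaffold of paraspeckles, rose from 7.05 ± 0.275 to 24.0 ± 3.79 RPKM.

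**Figure D2:**
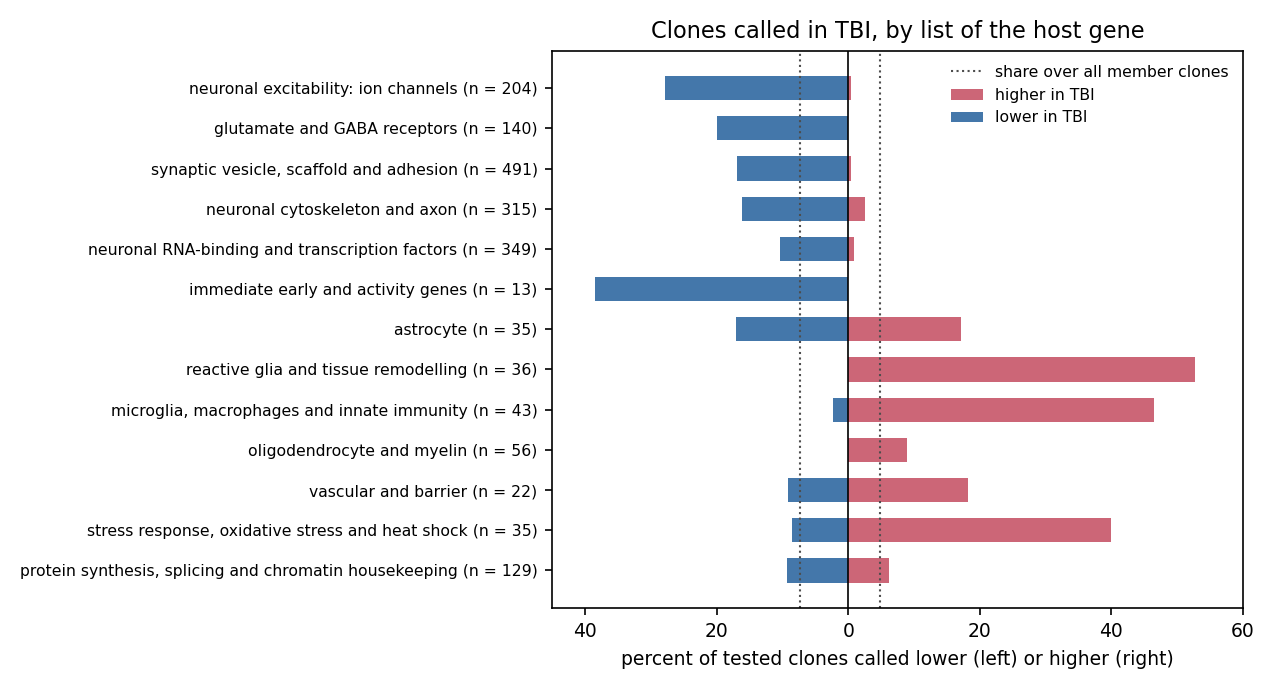
Percent of tested clones called lower (left, blue) and higher (right, red) in TBI for 13 lists of host genes, with the number of tested clones beside each list; dotted lines mark the shares over all clones (7.27% lower and 4.82% higher). The lists of neuronal function extend to the left, and those of reactive, immune and stress genes to the right. The lists were chosen with earlier results of these data known.

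Hosts with many clones gave a range of clone changes within a gene. The part of counting noise in these ranges was not tested. Ptprd, a receptor phosphatase of synapses, held 40 clones with log2 changes from -1.10 to -0.15, and 17 were called lower. Hosts from here on in this paragraph other than Nrxn3 and Mir1957 were chosen after their values were seen. All 30 clones in Robo2 had log2 changes between -1.02 and -0.16, and 17 were called lower. Nrxn3 held 38 clones with changes from -0.67 to 0.29 (7 lower), and Pcdh9, a protocadherin gene, held 36 from -0.59 to -0.057 (8 lower). Pde4d, a cyclic AMP phosphodiesterase gene, held 31 clones from -0.71 to 0.70 of which 0 were called, while the host fell by 0.39 on the log2 scale (adjusted p = 0.00254). The 33 clones in Auts2 also gave 0 calls, and its host changed by -0.079 (adjusted p = 0.735). The row Mir1957 held most clones, 112, of which 6 were higher and 4 lower. Its deposited interval spans 70298 kb with a mean count of 0, so it is no transcript unit for these clones.

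The difference between clone and host was tested for 17839 clone-host pairs, 17731 of them with clones of the set, in 1 fit with terms for library and for clone or host. At an adjusted p under 0.05 this fit called 2 pairs (0.0112%), 1 of them in the set, and 1666 pairs (9.34%) had an unadjusted p under 0.05. Of the 1653 of these in the set, the clone was above the host in 1130 and below it in 523. Where reads are counted in both rows, they pull a clone and its host together, and how many reads were shared was not tested. A total of 2615 clones held over 50% of the host count. Pairs with the same counts in clone and host (370 clones) have no spread of their own, so the number of calls depends on which pairs enter the fit: for clones with at most 50% of the host count, chosen after seeing the data, 3 were called above and 2 below the host. With limma on the log2 ratio (pseudocount 0.5), 5 clones were called above and 4 below the host.

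The called pair was Sbno2 and its clone A830042K24. Sbno2 encodes a transcriptional co-regulator known from macrophages, where its gene responds to STAT3 signalling. The host row (chr10, minus strand) had 395, 416 and 460 reads in control and 2963, 2433 and 3385 in TBI. Clone A830042K24 (chr10:80070621-80102698, minus strand) is spliced to 2537 bases, begins 4 bases from start 1 and ends at the annotated transcript Sbno2-208. It had 174, 163 and 184 reads in control and 331, 260 and 354 in TBI. Both groups were apart for clone and host, but the clone rose by 0.86 ± 0.16 SE and the host by 2.80 on the log2 scale. The difference was -1.93 ± 0.066 SE (adjusted p = 0.0119). Without any 1 library, the adjusted p of this difference was 0.0791 to 0.258, with the difference between -1.96 and -1.88.

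Clone F830108N18 (chr10:80074109-80075400, minus strand), chosen after its values were seen, had a larger change than the host. It is unspliced and begins 39 bases from start 3, with 13.4% of its span in exons. Its counts were 10, 10 and 11 in control and 206, 173 and 224 in TBI, a 20.6-fold rise in mean RPKM (log2 change 4.27 ± 0.24 SE, adjusted p = 1.86e-07). Relative to the host it was higher by 1.48 on the log2 scale (adjusted p = 0.0503). As a share of the count of A830042K24, its count was 5.75%, 6.13% and 5.98% in control and 62.2%, 66.5% and 63.3% in TBI. The start 3 window given above holds no STAT-type match, the start 1 window holds one from 26 to 18 bases before the start, and the window of start 2, where no clone of the set began, holds one from 24 to 16 bases before it. Among 23 hosts with clones of mean count 30 or more at different starts, Sbno2 had the only difference between starts of at least 1 on the log2 scale, and the median difference was 0.092. Clone F830108N18 reached the limits on mean count only with its TBI reads, so a rise was built into its entry to this comparison.

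**Figure D3:**
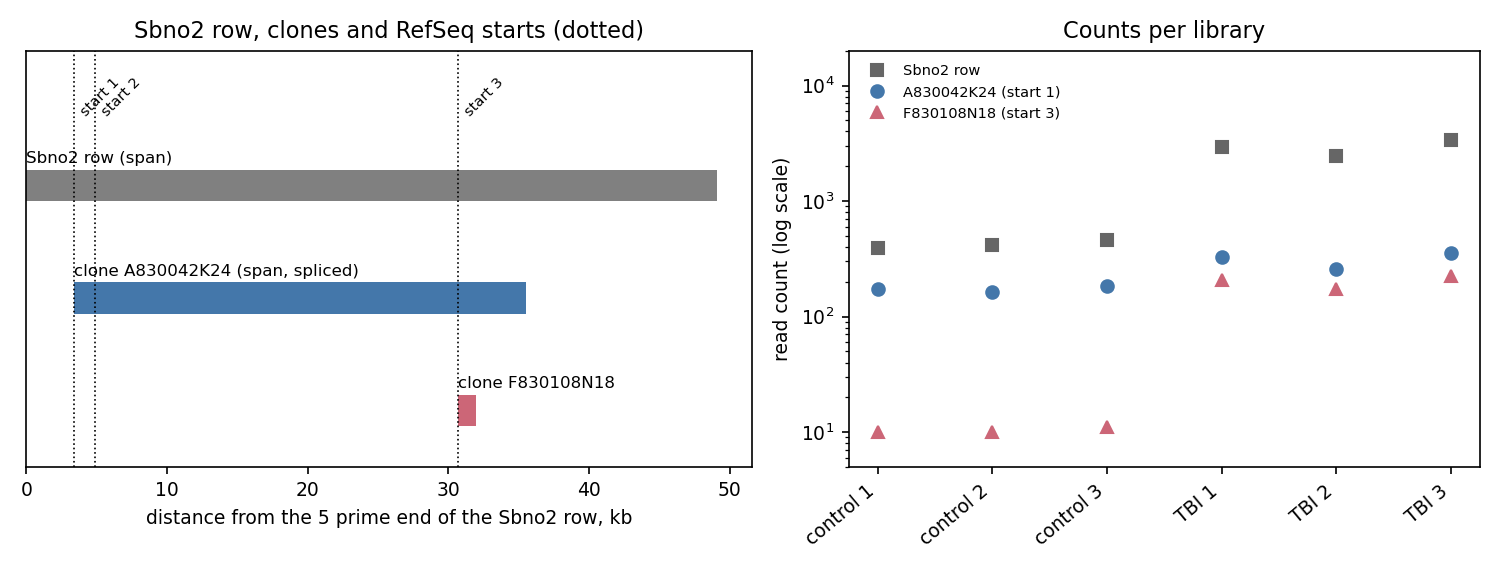
Left, the Sbno2 row and its clones by distance in kb from the 5 prime end of the row, with the 3 RefSeq starts as dotted lines; right, read counts per library on a log scale for the host row and both clones. The clone at start 3 lies near 10 reads in the control libraries and between 173 and 224 in the TBI libraries, while the clone at start 1 moves from 163 to 184 reads up to 260 to 354.

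A clone at a start that was not called in a called host lay in Lcp1, which encodes the actin-bundling protein L-plastin of leukocytes; this clone and those in the rest of this paragraph were chosen after their values were seen. Clone C730041E23 begins 36 bases from start 1 of Lcp1 and had 27, 49 and 41 reads in control and 38, 54 and 51 in TBI, so the groups overlapped. It shares 547 bases with exons of the opposite strand, whose part in the count was not tested. Its host had 469, 534 and 576 in control and 2585, 2256 and 3750 in TBI. The difference was -2.13 on the log2 scale (unadjusted p = 0.000805, adjusted p = 0.225). A clone at the other end of Lcp1, I830025L21, rose by 2.51, near the host change of 2.46. In Tln1, which encodes the adhesion protein talin, clone 1700018G09 near the 5 prime end had 401, 370 and 460 reads in control and 345, 406 and 358 in TBI, with overlap, while the log2 change of its host was 0.9998. The difference was -1.15 (adjusted p = 0.158), and the clone shares 252 bases with exons of the opposite strand.

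Clones at different 3 prime ends of a gene could be compared in 96 hosts, taking clones with a poly(A) signal at the end, a mean count of at least 100 and ends more than 1000 bases apart. The median difference between the highest and the lowest clone of a host was 0.10 on the log2 scale. It reached 0.5 in 4 hosts: Ntrk2, Ankrd28, Dclk1 and Whsc1. These hosts were chosen for the difference, so it is a description.

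Ntrk2 encodes TrkB, the receptor for brain-derived neurotrophic factor, which exists as a full-length form with an intracellular kinase domain and as a short form that lacks it. Clone 3526401J04 lies in the untranslated end of the transcript Ntrk2-202, 39.4% along the host. It had 2307, 2781 and 2769 reads in control and 3010, 3278 and 2439 in TBI, and the groups overlapped (log2 change 0.15 ± 0.095 SE, adjusted p = 0.319). Clone C030027L06 at the end of Ntrk2-201, the last of the host, had 1700, 1660 and 2029 reads in control and 1269, 1076 and 974 in TBI, with no overlap (log2 change -0.70 ± 0.10 SE, adjusted p = 0.000575). The count of the earlier clone as a share of the later one was 136%, 168% and 136% in control and 237%, 305% and 250% in TBI. Against the host, 3526401J04 was higher by 0.53 (adjusted p = 0.226) and C030027L06 differed by -0.31 on the log2 scale (adjusted p = 0.225), so neither passed the test.

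Dclk1 encodes a microtubule-binding doublecortin-like protein, and its longer transcripts add a kinase domain. Clone 6430555I10 ends with the earlier-ending transcript Dclk1-203 and had 1739, 1885 and 2170 reads in control and 2115, 1882 and 1866 in TBI, with a log2 change of 0.02 ± 0.08 SE. Clone 6330535A08 ends with Dclk1-201, Dclk1-202 and Dclk1-204 and had 7099, 7227 and 8631 reads in control and 5118, 5127 and 4961 in TBI (log2 change -0.59 ± 0.07 SE, adjusted p = 0.000146). The count of the earlier clone was 24.5%, 26.1% and 25.1% of that of the later one in control and 41.3%, 36.7% and 37.6% in TBI. Its difference from the host was 0.59 (adjusted p = 0.0528). A further clone of the same untranslated region, 2810480F11, had a log2 change of 0.018 and was not called. Ankrd28, which encodes an ankyrin-repeat subunit of a protein phosphatase, was higher in both clones compared. The earlier-ending clone, 3110068A07, holds a poly(A) signal near its end, but no annotated transcript ends within 10 bases of it. Clone 3110068A07 had 113, 136 and 164 reads in control and 295, 215 and 328 in TBI, and E430019N21 at the last end had 1222, 1495 and 1441 in control and 1891, 1575 and 1667 in TBI. Their log2 changes were 1.04 and 0.31.

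No intronic clone passed the test against the host over all pairs, and the differences of some are given as values; the clones in P2ry12 and Abi1 were chosen after their values were seen. P2ry12 encodes the purine receptor of resting microglia, and its host row had 2627, 2839 and 3098 reads in control and 774, 870 and 688 in TBI. Clone F830223O12, in an intron, had 28, 28 and 30 in control and 36, 33 and 26 in TBI, and the groups overlapped. The difference was 2.02 ± 0.12 SE (adjusted p = 0.0503). P2ry12 lies inside Med12l on the opposite strand, with 3433, 4315 and 4257 reads in control and 3294, 3662 and 3455 in TBI. Abi1 encodes an actin regulator, and its intronic clone 2900019G23 had 39, 48 and 53 reads in control and 251, 190 and 183 in TBI, with no overlap. Its host changed by 0.028, and the difference was 2.13 (adjusted p = 0.0528). The other 3 clones in Abi1, 2210402A03, 8430428M13 and F530110N24, changed by 0.024, 0.37 and 0.089 on the log2 scale.

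The Fgf13 clone 9630006A19 had the smallest p for its own change among those that went against a called host. Fgf13 encodes an intracellular partner of sodium channels, and its row fell by 0.67. The clone had 67, 100 and 67 reads in control and 148, 139 and 159 in TBI, a log2 change of 0.93 ± 0.21 SE (adjusted p = 0.00751). The difference from the host was 1.61 (adjusted p = 0.191). Of the other 6 clones in Fgf13, A830088L01 fell by 1.16 and 7120456H12 had a change of 0.94 (adjusted p = 0.138). The clones in Nf1 (A630020N13) and Gnb1 (D130074C24) rose by 0.86 and 0.64 in hosts that fell by 0.34 and 0.27. The Nf1 clone lies under Evi2b of the opposite strand, which had 406, 381 and 438 reads in control and 597, 609 and 764 in TBI. In Tnfaip8, chosen after its values were seen, clone A130009K03 showed the reverse, with 168, 195 and 212 reads in control and 131, 122 and 146 in TBI while its host rose by 0.997 on the log2 scale. The difference was -1.52 (adjusted p = 0.0528). It shares 256 bases with exons of the opposite strand.

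Clone D230032H18 in an intron of Veph1, chosen after its values were seen, rose from 3, 5 and 13 reads to 266, 223 and 707, with its host at 10, 18 and 22 in control and 22, 15 and 21 in TBI. All 1121 bases of the clone lie in exons of the opposite strand, where Ptx3, a secreted pattern-recognition protein gene, had 10, 10 and 16 reads in control and 1539, 1275 and 4129 in TBI. This clone therefore cannot be told apart from the opposite gene. It also reached the limit on mean count only with its TBI reads. Of the whole set, 1840 clones overlapped an exon of the opposite strand, and among the 1836 tested 105 were higher and 167 lower. These calls made up 14.8%, against 11.8% of tested clones with no opposite-strand exon, 12.1% of all clones and 17.5% of all rows. The median of the mean count was 215 reads with and 106 without an opposite-strand exon, and the part of depth in these shares was not tested.

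**Figure D4:**
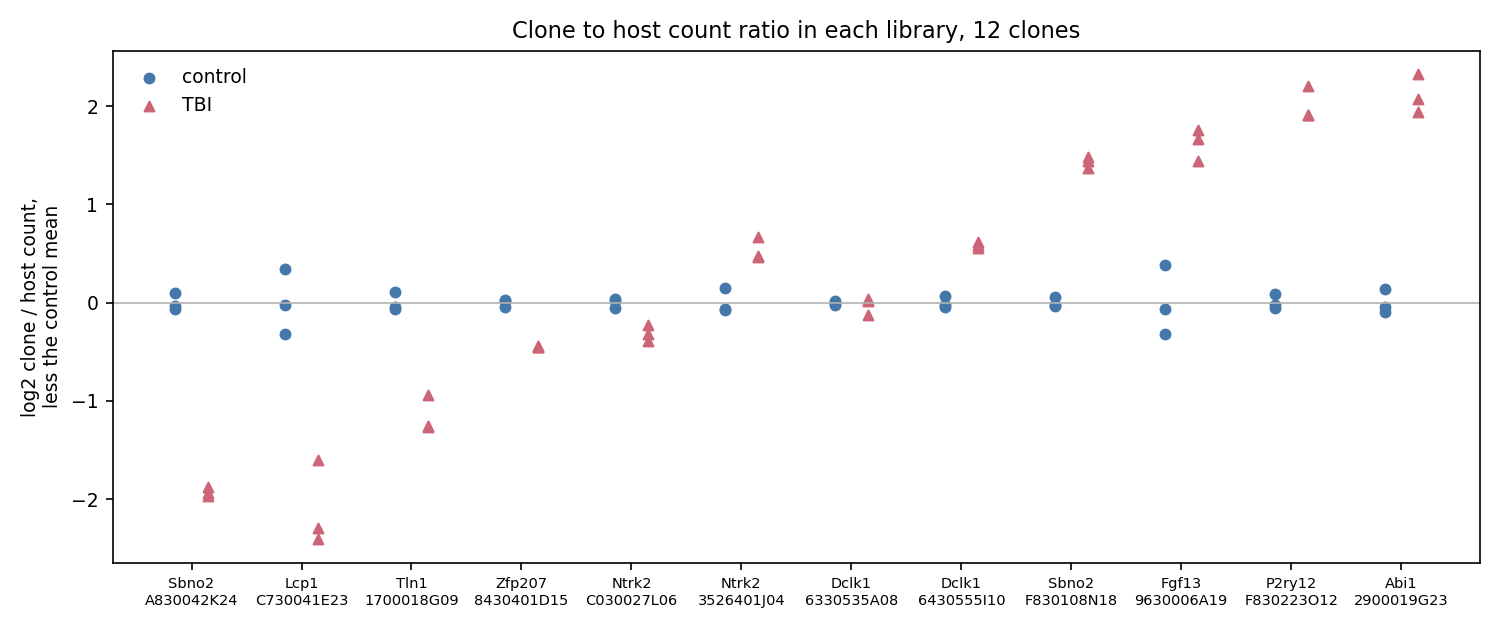
Log2 of the clone count over the host count in each library, less its mean in control, for 12 clones that the text describes; circles are the 3 control and triangles the 3 TBI libraries. The ratios of A830042K24, C730041E23, 1700018G09 and 8430401D15 are lower in TBI, and those of F830108N18, 9630006A19, F830223O12 and 2900019G23 are the highest.

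Clones in introns as a class were low, with a median ratio of 0.040 to the RPKM of the host, against 0.20 for mixed and 0.77 for exonic clones. Their median difference from the host was 0.14 on the log2 scale, against 0.015 for mixed and -0.0022 for exonic clones. It was 0.21 in hosts that fell, 0.13 in hosts that were not called and -0.062 in hosts that rose. The host change enters both the split and the difference, so no pattern is read from these 3 values. Along the host, the median ranged from 0.12 to 0.16 over 5 equal parts. By host length it was 0.057 under 30 kb, 0.14 from 30 to 100 kb, 0.15 from 100 to 300 kb and 0.16 above.

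This difference was not larger than the spread between libraries. The median over 6705 intronic clones of the log2 ratio to the host, centred on its mean over the libraries, was -0.20, 0.17 and -0.15 in control and 0.12, -0.0091 and 0.15 in TBI. Control replicate 2 was the highest of all 6 libraries, so the groups overlapped. Intronic clones held 1.06%, 1.31% and 1.10% of the total count in control and 1.18%, 1.10% and 1.21% in TBI. Without control replicate 2 the median difference was 0.27, and without control replicate 1 or 3 it was 0.081 or 0.095.

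**Figure D5:**
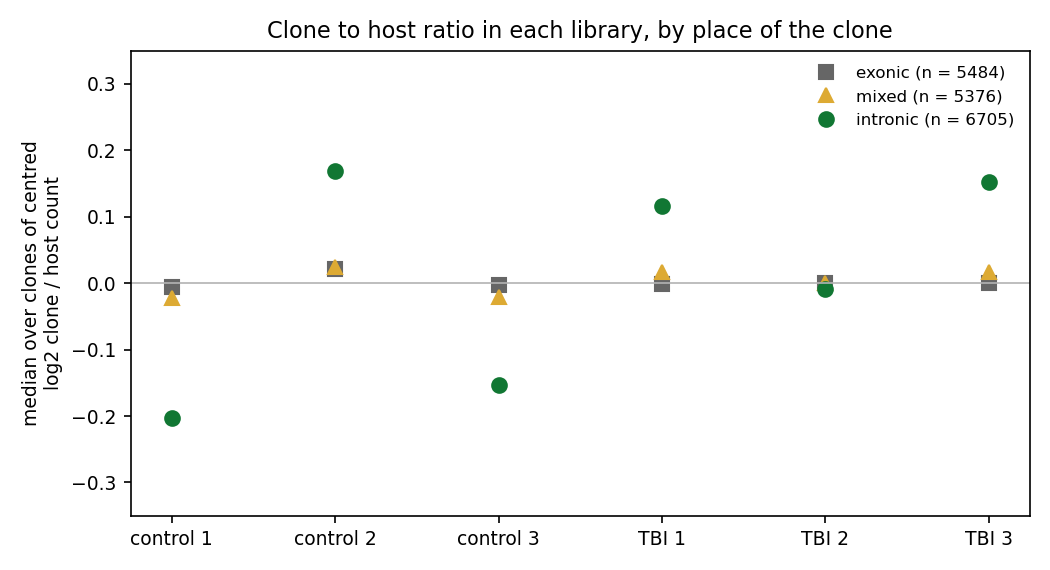
Median over clones of the log2 clone to host count ratio, centred per clone on its mean over the 6 libraries, for exonic, mixed and intronic clones. The intronic medians range from -0.20 to 0.17, with control replicate 2 above all TBI libraries, and the exonic and mixed medians lie near 0.

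Among the most abundant clones by RPKM, clone C530009H14 in the nuclear noncoding RNA Malat1 had 1888 ± 156 and 2200 ± 165 RPKM (adjusted p = 0.326). In Apoe, which encodes the lipid carrier of astrocytes, clone 2900019G12 went from 727 ± 10.5 to 606 ± 57.2 RPKM (log2 change -0.34 ± 0.08 SE, adjusted p = 0.0121). The ratio of the Zfp207 clone 8430401D15, chosen after its values were seen, to its host differed by -0.45 on the log2 scale (adjusted p = 0.073), with 496, 593 and 648 reads in control and 485, 516 and 479 in TBI.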

How the data were processed

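Cortex of wild-type C57BL/6 mice was profiled as total RNA in 3 control and 3 TBI libraries. Per the labels' protocols, RNA was fragmented, 1 cDNA strand was marked with deoxy-UTP and the cDNA was amplified by PCR. Per the submitters' processing notes, TopHat2 and mm10 were used, and which tool counted the reads, and with which strand setting, is not stated there. The deposited gene table gives a count and an RPKM value for each row and library, both made by the authors. The transcript table repeats all 17964 clones with the same counts.

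Row lengths were recovered from count, total and RPKM. Counts were tested with edgeR 4.0.16 in R 4.3.3 (quasi-likelihood F test, filterByExpr with minimum count 10 and minimum total 15, TMM, Benjamini-Hochberg over all rows tested, calls at an adjusted p under 0.05). Clone against host was tested in 1 edgeR fit on the 6 clone and 6 host counts of each pair, with terms for library, row type and row type by TBI. Each adjusted p in the text is from edgeR. DESeq2 1.42.0, limma 3.58.1, other filters, other clone rules, a replicate block and leaving out each library were alternatives.

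On simulated counts, the fit of TBI against control over 42276 rows recovered 74 of 101 rows with a log2 change of 1 and 87 of 93 with a change of 2, and 13.4% of its calls were false. On 17839 simulated pairs, the clone against host fit recovered 66 of 95 and 101 of 105, with 5.11% false. Clone and host counts were drawn separately there, so these shares do not cover pairs that share reads, such as those with equal counts. The floor of 3 reads covers counting error only, since PCR copies are not independent molecules.

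The clones, the 13 host lists and the tests were chosen with earlier results of these data known. Named clones are, with at most 1 per host: those called against the host (up to 8 each way) or the 6 largest rises and falls among called clones, each with mean count at least 30 and no overlap between groups; up to 3 called clones per list by smallest p; the 3 highest by RPKM; 3 hosts with most clones; and up to 4 clones called against a called host. Hosts matched GENCODE by symbol for 16963 clones and by synonym for 721. The names of 33 clones' hosts are dates, and these were not named. A Ythdc2 clone that the rule names, 4833422B07, rose by 0.82 while its host fell by 0.25 on the log2 scale. Promoter windows are RefSeq's (GRCm38.p6). Intronic clone sequence was not analysed here. Some clones that the rule names are not reported here.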

Additional observations from a re-analysis of the deposited data

How the results depend on the processing

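Higher clones numbered 861 and lower clones 1300 of 17870 tested. Leaving out 1 library gave 520 to 910 higher and 854 to 1306 lower clones, with the fewest higher without TBI replicate 3 (520) or TBI replicate 1 (547) and the fewest lower without control replicate 3 (854). With 1 clone per host they were 475 and 640 of 7043 tested. For clones that overlap no other clone of the set they were 493 and 685 of 11577. With limma on log2(RPKM + 1), 774 clones and 598 hosts were lower, and the cause was not tested. Lower hosts, 1035 in all, ranged from 679 (without control replicate 1) to 1270 when 1 library was left out, with 684 without control replicate 3.

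Clones called above and below the host numbered 0 and 1. They were 5 and 4 with the host count as offset, 5 and 4 with limma at a pseudocount of 0.5, 3 and 3 at 5, 3 and 2 for clones with at most 50% of the host count, and 5 and 2 for intronic clones alone; the last 2 settings were chosen after seeing the data. Leaving out any 1 library gave 0 and 0. The median difference of mixed clones, 0.015, ranged from 0.0049 to 0.040 (without control replicate 2) when 1 library was left out and was 0.045 for clones with at most 50% of the host count. With exons of protein-coding transcripts only, 3250 tested pairs were exonic, against 5484. Another 9621 pairs had clones outside such host exons, against 6705 intronic pairs, and their median difference was 0.10 against 0.14.

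Same-numbered libraries did not deviate together (correlations 0.054, 0.055 and 0.049), so the numbers were not taken as pairs. With a replicate block, 952 clones were higher, 1462 lower, and 0 were called against the host in either direction. Over the named clones, 818 alternative values for the change in TBI kept direction and side of the threshold and 46 kept direction only; for the change against the host 220 kept both, 27 became called and 7, all of A830042K24, were lost. The median mean count of intronic clones was 54 reads, and the part of depth in their calls was not tested.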
